A study of Rattus norvegicus with 12 samples.

Results

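Genes of adult neurogenesis were followed in the hippocampus of blast-exposed rats that ate boldine in their chow (blast-boldine) or did not (blast-controls). The set held 10 genes, listed by name for their place along the path from neural stem cell to immature neuron, of the 17494 genes listed in the counts. They were Sox2, Mki67, Top2a, Eomes, Neurod1, Neurod2, Sox4, Sox11, Igfbpl1 and Dcx. Rows for 9 of the 10 were read, and Eomes was not analysed here. All 9 passed the filter on low counts and were tested. The rats were male wild-type Long Evans rats, all 12 of which received 3 blast exposures at 10 weeks of age and were sacrificed 29 weeks after blast. From the second week after blast, 6 of them ate chow with boldine at 500 mg/kg, and 6 ate the same chow without it. Boldine is a plant alkaloid that blocks connexin and pannexin hemichannels. No unexposed rat was analysed here, so the values compare treated with untreated blast-exposed rats and do not measure an effect of blast.

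In the adult dentate gyrus, radial glia-like stem cells that express Sox2 give rise to dividing intermediate progenitors, and these give rise to neuroblasts that mature into granule neurons. Proliferation is commonly read from Mki67 and Top2a, commitment to the neuronal fate from the basic helix-loop-helix factor Neurod1, and the immature neuron from the microtubule-binding protein doublecortin (Dcx). The cells concerned are few in an adult hippocampus and become fewer with age. In RNA from whole tissue, fewer cells of a type and less RNA per cell cannot be told apart.

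The 9 genes lie on 8 chromosomes of mRatBN7.2. Dcx lies on chromosome X from 107430767 to 107507476, Sox11 on chromosome 6 from 44008336 to 44010354 and Sox4 on chromosome 17 from 35667809 to 35672514. Neurod1 lies on chromosome 3 from 64360231 to 64363526, Sox2 on chromosome 2 from 117536929 to 117539338, Igfbpl1 on chromosome 5 from 60076428 to 60091833 and Mki67 on chromosome 1 from 190496319 to 190522762. Neurod2 (83324873 to 83326691) and Top2a (83946186 to 83975696) are both on chromosome 10. The annotated exon sequence is 8827 bases long in Dcx and 9880 in Mki67, and between 1329 and 4968 bases in the other 7.

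RefSeq promoters of GRCr8 were found for 8 of the 9 genes, all but Sox4. The 250 bases before the start of 3 genes are shown, Dcx because its treatment difference came nearest to the threshold, and Neurod2 and Sox11 because they differed in the opposite direction to Dcx between the sets of libraries described below. Capitals mark matches to the E-box CANNTG, the motif that NeuroD and other basic helix-loop-helix factors bind, and to 2 SOX core motifs, AACAAT and ACAAAG, each searched on both strands.
Dcx (GRCr8 chrX:112304162-112304411, minus strand): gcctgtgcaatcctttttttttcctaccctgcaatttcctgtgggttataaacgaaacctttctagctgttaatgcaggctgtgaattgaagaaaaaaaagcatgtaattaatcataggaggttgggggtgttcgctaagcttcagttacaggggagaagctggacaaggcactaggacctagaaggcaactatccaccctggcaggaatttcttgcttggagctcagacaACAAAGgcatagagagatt
Neurod2 (GRCr8 chr10:83824278-83824527, minus strand): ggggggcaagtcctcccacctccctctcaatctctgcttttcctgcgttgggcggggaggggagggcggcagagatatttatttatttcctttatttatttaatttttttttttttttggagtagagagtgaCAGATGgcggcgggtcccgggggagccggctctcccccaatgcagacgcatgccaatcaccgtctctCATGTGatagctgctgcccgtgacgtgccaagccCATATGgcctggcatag
Sox11 (GRCr8 chr6:49738795-49739044, minus strand): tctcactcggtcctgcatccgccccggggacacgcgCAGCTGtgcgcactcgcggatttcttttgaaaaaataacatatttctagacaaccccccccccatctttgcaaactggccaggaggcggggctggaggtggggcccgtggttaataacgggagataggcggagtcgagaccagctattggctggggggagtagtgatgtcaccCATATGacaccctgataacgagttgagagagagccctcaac
Neurod2 had 3 E-boxes in this window, Sox11 had 2 and Dcx had none. An E-box was present in 7 of the 8 promoters, and in 65.2% of all 27457 promoters of this length. ACAAAG was present in 2 of the 8, those of Dcx and Top2a, against 16.0% of all promoters, and AACAAT in none, against 10.3%. These letters describe the windows and show no binding.

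The libraries held between 10148474 and 40850106 counts on genes, apart from that of blast-control rat 6, which held 74008. A value of 3 counts, taken as the least detected, corresponded in rat 6 to 47.5 CPM (counts scaled to the size of the library, with TMM normalization). In the other rats it corresponded to 0.0658 to 0.307 CPM. Library names carry suffixes from 1 to 6, each used on 2 libraries. The libraries were therefore divided into 2 sets, called sheets here, sheet A (rats 1, 7, 9, 20, 32 and 35) and sheet B (rats 4, 5, 6, 12, 17 and 19), with 3 rats of each treatment in each. This division was 1 of 4 in which each set holds every suffix once and rat numbers are taken to rise with the suffix. It was chosen because it accounted for 94.8% of the first principal component of the 11 deeper libraries. The labels name no such sets, and whether they differ by sequencing, dissection or another step was not tested. Every value below is given without rat 6 unless stated, and its counts are described on their own. All 8 markers of hippocampal excitatory neurons, among them Prox1 and C1ql2 of granule neurons and Wfs1 and Fibcd1 of CA1, were detected in the 11 rats. Prox1 measured 90.5 to 215 CPM in blast-boldine rats and 89.7 to 198 CPM in blast-controls. By sheet it measured 89.7 to 112 CPM in sheet A and 165 to 215 CPM in sheet B. Sheet B lay above sheet A in every rat in 25% of genes tested. C1ql2, Wfs1 and Fibcd1 overlapped between the sheets.

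On the TPM scale, which divides counts by gene length and then by the library, the levels of the 9 genes spanned a wide range. Neurod2, which is kept on in mature excitatory neurons, was highest at 125 ± 56.5 TPM (SD, n = 11). Sox2, which astrocytes also express, followed at 86.2 ± 24.2 TPM, and Neurod1 at 55.7 ± 20.6 TPM. Sox4 measured 21.6 ± 6.00 TPM, near the median of 23.9 TPM over all genes with a count. Dcx measured 10.5 ± 1.77 TPM, Sox11 9.08 ± 3.72 TPM and Igfbpl1 4.16 ± 2.74 TPM. The cell cycle genes were lowest, Top2a at 1.23 ± 0.339 TPM and Mki67 at 0.820 ± 0.234 TPM. The ranges over rats of neighbours in this order overlapped, except between Neurod1 and Sox4 and between Sox4 and Dcx, where they were apart.

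**Figure D1:**
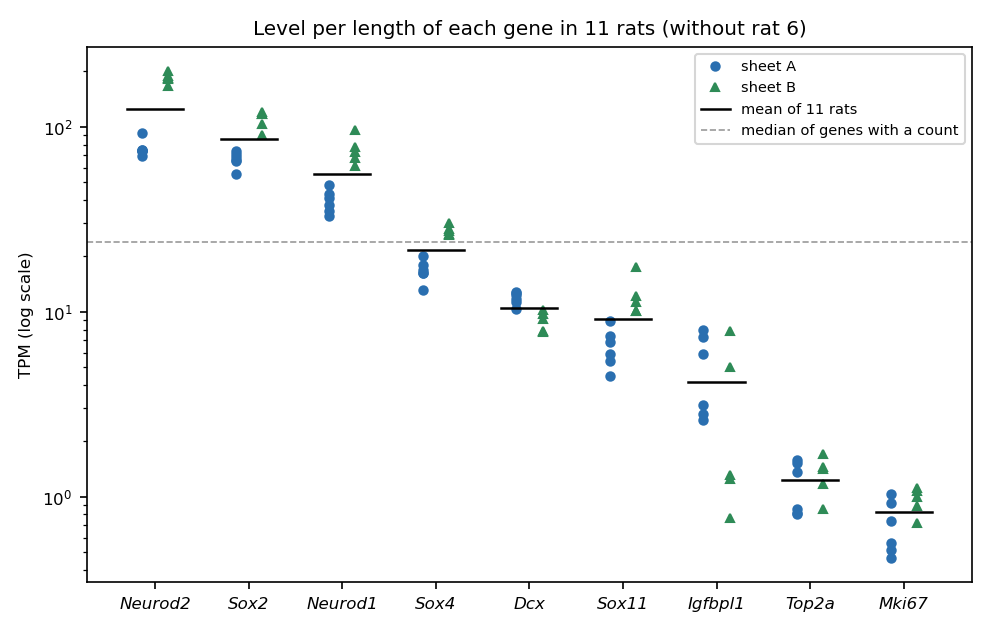
Level of each gene in TPM (vertical axis, log scale) in 11 rats, with a point per rat, circles for sheet A, triangles for sheet B, a black line for the mean of 11 rats and a dashed line for the median of genes with a count. The means run from 125 TPM for Neurod2 to 0.820 TPM for Mki67, and the triangles lie above the circles in 5 genes and under them in Dcx. In CPM, every rat of sheet B lay above every rat of sheet A in 25% of genes tested, and under in 23.7%.

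None of the 9 genes passed the test between blast-boldine rats and blast-controls. Over the 12 rats, 0 of 9 had an unadjusted p under 0.05 in edgeR's quasi-likelihood test, against 1.07% of the 12325 genes tested, and DESeq2 likewise gave 0 of 9, against 0.542% of 15690 genes. After Benjamini-Hochberg adjustment, edgeR gave each of the 9 a p of 1.0, as it gave every gene tested. The median log2 fold change of the 9 was 0.12, against 0.0046 over all genes tested, with 6 genes higher and 3 lower. Without rat 6 the test again called 0 of 9, against 1.4% of 12529 genes, with a median of 0.12, 8 genes higher and 1 lower. Over the 11 rats, the groups overlapped in all 9 genes, and they did not in 0.136% of genes tested.

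Sox2, the transcription factor that maintains stem cells, measured 62.3, 100, 113, 62.9 and 53.2 CPM in blast-control rats 1, 4, 5, 7 and 9. In blast-boldine rats the lowest value was 58.6, the median 73.8 and the highest 109 CPM. The groups covered the same span, and within each group the rats of sheet B were the higher ones. The log2 fold change of Sox2 was -0.01 (SE 0.25) over 12 rats and 0.04 (SE 0.25) without rat 6. The 95% interval of the latter ran from -0.51 to 0.59, so that it took in differences of either sign.

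Mki67, which encodes the proliferation antigen Ki-67, and Top2a, the topoisomerase of dividing cells, had few counts. Mki67 had 169, 30, 43, 40 and 25 counts in blast-control rats 1, 4, 5, 7 and 9, and 41 to 76 counts in blast-boldine rats. After normalization this was 3.05 ± 1.01 CPM (SD, n = 5) and 3.31 ± 0.863 CPM (SD, n = 6). Top2a had 130, 18, 28, 29 and 21 counts in the same blast-controls and 34 to 63 counts in blast-boldine rats, which was 2.15 ± 0.653 CPM (SD, n = 5) and 2.60 ± 0.591 CPM (SD, n = 6). The highest count of both genes was that of rat 1, the deepest library, and the groups overlapped in both. Log2 fold changes without rat 6 were 0.11 (SE 0.27) for Mki67 and 0.25 (SE 0.24) for Top2a.

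Neurod1, which drives progenitors toward the granule neuron fate, measured 31.8, 51.3, 44.6, 22.4 and 26.1 CPM in blast-control rats 1, 4, 5, 7 and 9. Blast-boldine rats measured 26.7 at the lowest, 42.1 at the median and 69.3 CPM at the highest, so that the groups overlapped. The log2 fold change without rat 6 was 0.32 (SE 0.31), with a 95% interval from -0.35 to 0.999. Neurod2, a related factor of later neurons, measured 45.9, 127, 136, 50.8 and 68.9 CPM in the same blast-controls. In blast-boldine rats the lowest value of Neurod2 was 52.4, the median 92.0 and the highest 145 CPM. Its log2 fold change in edgeR was -0.56 (SE 0.63) over 12 rats and 0.14 (SE 0.40) without rat 6, so that the sign changed when rat 6 was left out. The sign also varied with the fit, at -0.014 without rat 6 and with the sheet as a term, and at 0.085 in limma-voom over 12 rats.

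Sox4 and Sox11 are SoxC factors that switch on neuronal genes in newborn neurons. Sox4 measured 34.3, 51.4, 57.03, 28.7 and 25.3 CPM in blast-control rats 1, 4, 5, 7 and 9, and 30.3 to 52.2 CPM in blast-boldine rats with a median of 41.1. Its log2 fold change without rat 6 was 0.06 (SE 0.26). Sox11 measured 6.54, 8.49, 14.1, 5.66 and 4.50 CPM in those blast-controls, from 54 to 298 counts. In blast-boldine rats Sox11 ran from 3.53 over a median of 6.74 to 9.82 CPM, from 71 to 141 counts. Rat 5 held the highest value of Sox11, above every other rat, and the remaining values of the groups were interleaved. The log2 fold change of Sox11 was -0.20 (SE 0.33) over 12 rats and -0.22 (SE 0.34) without rat 6. Over the 11 rats other than rat 5, rat 6 included, it was 0.11, of the opposite sign.

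Igfbpl1, which encodes a secreted protein related to insulin-like growth factor binding proteins and is used as a marker of early neuroblasts, came nearest to the limit of detection. There were 130, 7, 4, 70 and 17 counts in blast-control rats 1, 4, 5, 7 and 9, and 72, 27, 9, 37, 88 and 29 in blast-boldine rats 12, 17, 19, 20, 32 and 35. In CPM the blast-controls ran from 0.410 to 3.67 and the blast-boldine rats from 0.693 to 4.16. The values fell into high and low rats within both groups. The log2 fold change was 0.36 (SE 0.56) without rat 6, with a 95% interval from -0.87 to 1.59.

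Dcx, the gene of immature neurons, measured 40.8, 28.5, 27.7, 38.9 and 37.6 CPM in blast-control rats 1, 4, 5, 7 and 9. Blast-boldine rats 12, 17, 19, 20, 32 and 35 measured 34.4, 32.4, 35.6, 44.6, 41.5 and 38.7 CPM. The means were 34.7 ± 6.13 (SD, n = 5) and 37.9 ± 4.59 CPM (SD, n = 6), and the groups overlapped. These values rest on at least 271 counts in each of the 11 rats. The log2 fold change of Dcx was 0.13 (SE 0.14) over 12 rats and 0.12 (SE 0.14) without rat 6.

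The rats of the 2 sheets differed more than those of the 2 treatments in most of the 9 genes. All 5 rats of sheet B lay above all 6 of sheet A in Sox2, Sox4, Sox11, Neurod1 and Neurod2, as in 25% of genes tested. Neurod2 measured 45.9 to 68.9 CPM in sheet A and 127 to 145 CPM in sheet B. Sox11 measured 3.53 to 6.54 CPM in sheet A and 8.15 to 14.1 CPM in sheet B. Dcx was the only one of the 9 with every rat of sheet B under every rat of sheet A, 27.7 to 35.6 against 37.6 to 44.6 CPM, as in 23.7% of genes tested. In a fit with treatment, the log2 difference of sheet B from sheet A was 1.33 (SE 0.09) for Neurod2, 1.0 (SE 0.16) for Sox11, 0.97 (SE 0.11) for Neurod1, 0.79 (SE 0.09) for both Sox2 and Sox4, and -0.35 (SE 0.07) for Dcx. For the other 3 genes the sheets overlapped, with differences of 0.49 (SE 0.22) for Mki67, 0.20 (SE 0.23) for Top2a and -0.63 (SE 0.53) for Igfbpl1. These differences are a description, since the values of all genes chose the sheets. Neurod2 and Dcx, both read as neuronal genes, thus lay in opposite order between the sheets.

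**Figure D2:**
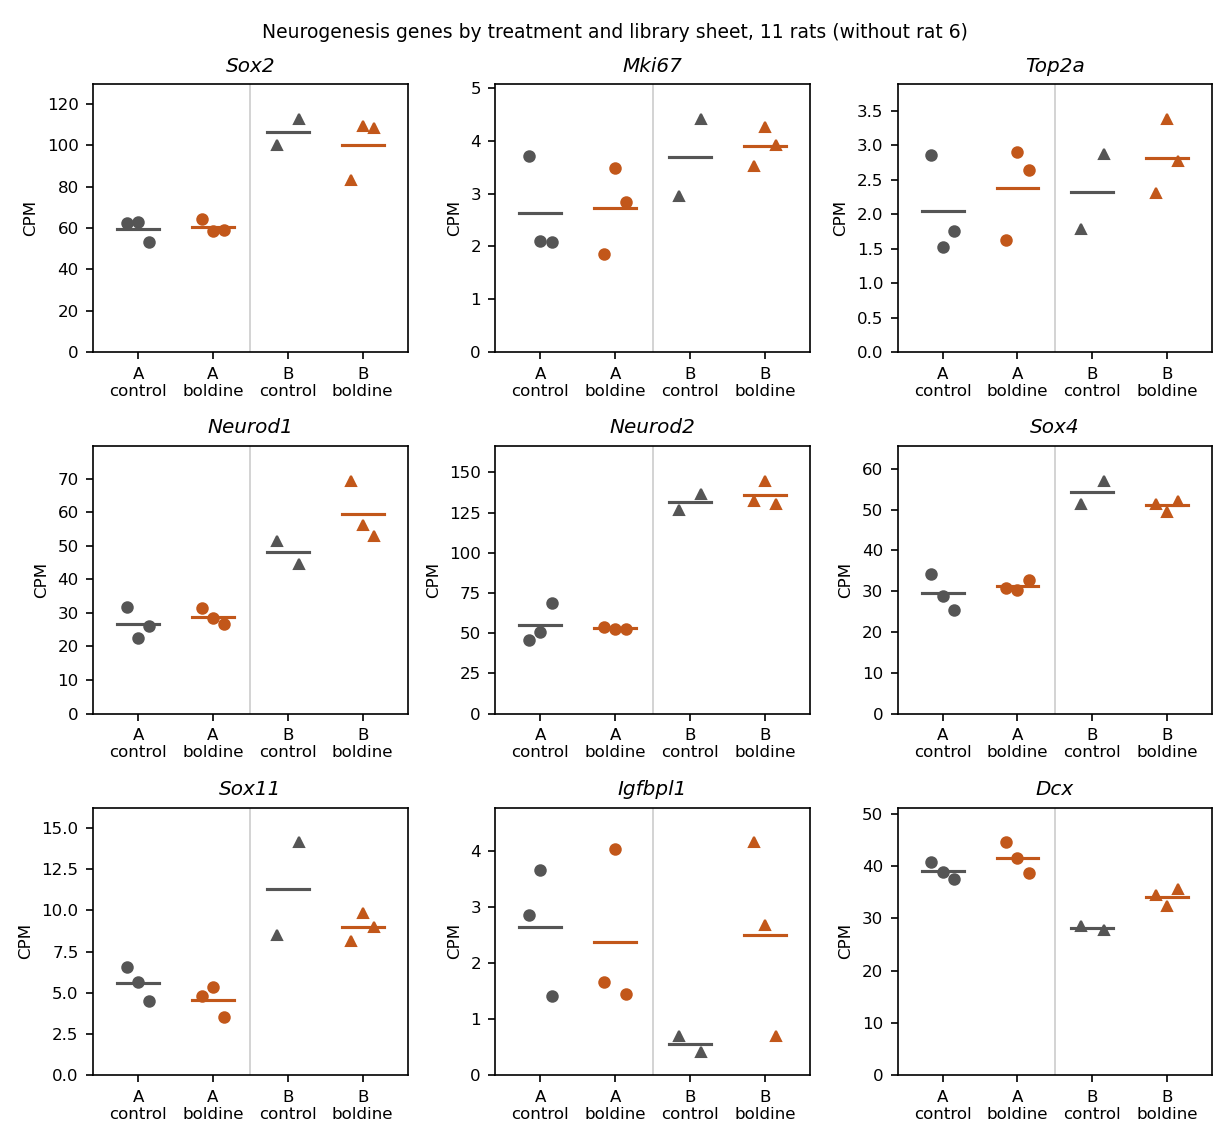
CPM of each gene (vertical axes, from 0) in 11 rats, split by sheet (A circles, B triangles) and treatment (grey blast-control, orange blast-boldine), with a line at each mean. Neurod2 lies between 45.9 and 68.9 CPM in sheet A and between 127 and 145 in sheet B under either treatment. Dcx of blast-boldine rats lies above that of blast-controls in sheet B and overlaps it in sheet A. In sheet B the treatments did not overlap in 22.3% of genes tested, with 3 rats against 2.

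Within sheets, Dcx came nearest to a call. In sheet B the blast-boldine rats measured 32.4 to 35.6 CPM of Dcx and blast-controls 4 and 5 measured 28.5 and 27.7, so that the groups did not overlap. In sheet A they did, at 38.7 to 44.6 against 37.6 to 40.8 CPM. Mean log2 CPM of Dcx was higher in blast-boldine rats by 0.28 in sheet B and by 0.09 in sheet A. In sheet B, 3 of the 9 genes did not overlap between treatments (Dcx, Neurod1 and Igfbpl1), against 22.3% of genes tested, with 3 rats against 2. Igfbpl1 of rat 19 and rat 4 was 0.693 and 0.691 CPM there, from 9 and 7 counts, which counting error does not separate. Blast-boldine rats 12 and 17 of this sheet had high choroid plexus markers, as described below. Blast-boldine rat 19 and blast-controls 4 and 5 had low ones. Whether this bears on Igfbpl1 in sheet B was not tested. In sheet A, 0 of 9 did not overlap, against 6.91% of genes tested.

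When the fit to 11 rats carried the sheet as a term, Dcx had a log2 fold change of 0.16 (SE 0.07), with a 95% interval from 0.0044 to 0.32. Its unadjusted p in edgeR was 0.0449, and after Benjamini-Hochberg adjustment it was 0.898, so that it did not pass the correction over all genes. The fit called Dcx alone of the 9 at an unadjusted p under 0.05, against 5.35% of genes tested. With rat 6 added to this fit, the unadjusted p of Dcx was 0.0549 in edgeR. The exact permutation test within sheets gave Dcx a two-sided p of 0.02 over 12 rats, where 5.18% of genes had a p under 0.05, and 0.02 over 11 rats, where 6.09% had. The smallest p these tests allow is 0.005. The form over 12 rats took rat 6 at 31.7 CPM of Dcx, from 2 counts. The exact 95% Poisson interval of this value ran from 3.84 to 114 CPM, wider than the span of the other 11 rats. The p over 12 rats thus rests in part on a value from 2 counts. Without sheets, the exact permutation p of Dcx was 0.232 over 12 rats and 0.333 over 11. No other of the 9 genes had a p under 0.05 in any of these permutation tests.

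The remaining genes lay as follows in the fit to 11 rats that carried the sheet. Sox11 had a log2 fold change of -0.33 (SE 0.16) and Neurod1 one of 0.19 (SE 0.11), with unadjusted p of 0.0672 and 0.107 in edgeR. Sox2, Sox4 and Neurod2 had log2 fold changes between -0.03 and -0.00021, with 95% intervals that all lay between -0.22 and 0.19. For these 3 genes the intervals were narrower than those without the covariate. Mki67 at 0.03 (SE 0.22), Top2a at 0.20 (SE 0.23) and Igfbpl1 at 0.50 (SE 0.52) kept wide intervals. The median of the 9 log2 fold changes was 0.03, against -0.0082 over all genes tested.

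**Figure D3:**
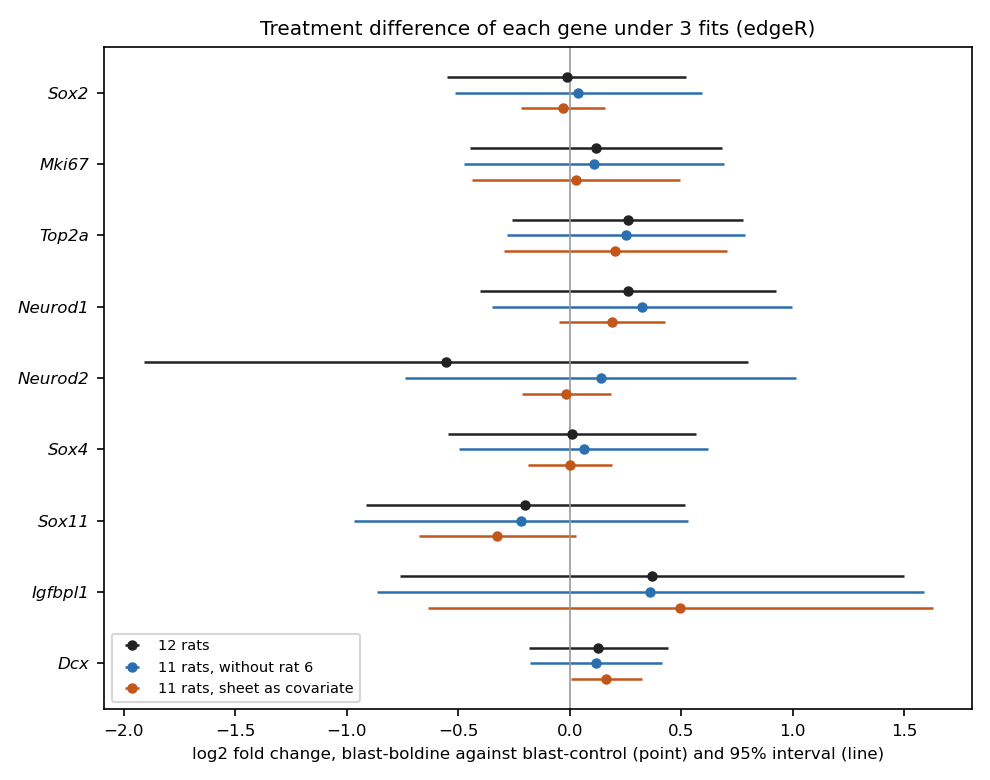
Log2 fold change of each gene, blast-boldine against blast-control (horizontal axis), as a point with its 95% interval for the 12 rats (black), for 11 rats without rat 6 (blue) and for 11 rats with the sheet as a covariate (orange). Only the orange interval of Dcx, from 0.0044 to 0.32, leaves out 0, and Neurod2 moves from -0.56 to 0.14 when rat 6 is left out.

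The spread between rats that treatment and sheet leave over differed among the genes. Dcx had a residual SD of 0.09 on the log2 scale, lower than all but 8.56% of genes tested. Igfbpl1 had one of 0.998, higher than 99.1% of genes. The SD lay between 0.13 and 0.19 for Sox4, Sox2, Neurod2 and Neurod1, around the median of 0.19 over all genes, and between 0.29 and 0.38 for Sox11, Mki67 and Top2a.

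In the library of rat 6, Neurod2 had 47 counts, with an exact 95% Poisson interval from 34.5 to 62.5. At the share of counts that Neurod2 took in the other 5 blast-controls, 3.79 to 9.72 counts would be expected at this depth. Neurod2 thus stood far above its own level in the other blast-controls, the 2 others of sheet B included. Sox2 had 8 counts in rat 6, Neurod1 and Sox4 5 each and Dcx 2, with intervals that took in the values expected. Mki67, Top2a, Sox11 and Igfbpl1 had 0 counts, where at most 1.01 were expected for any of them, so that rat 6 carries no information on these 4 genes. These intervals cover counting error only.

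**Figure D4:**
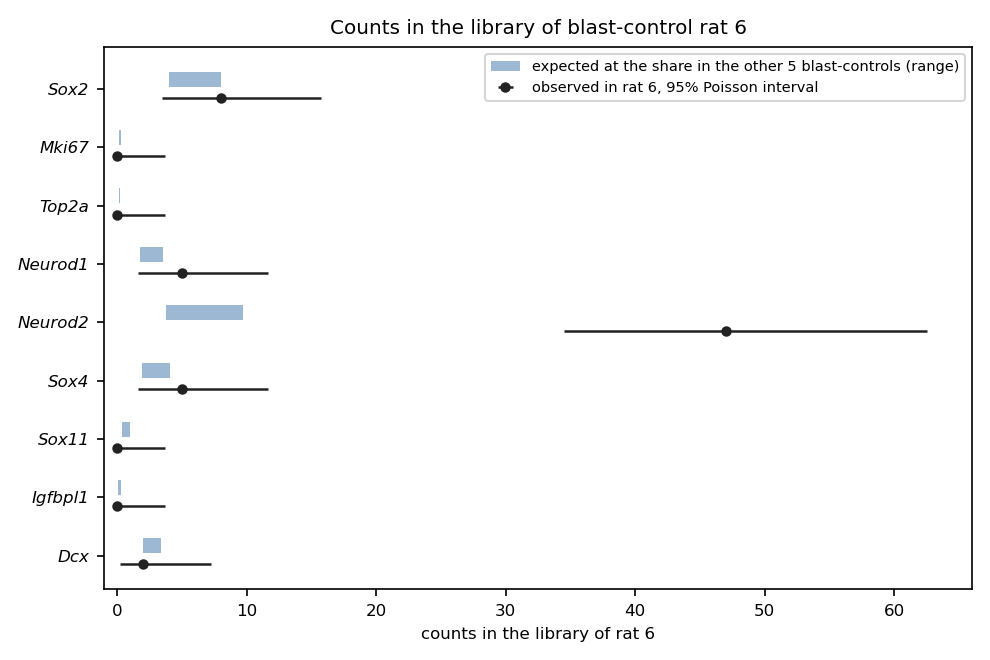
Counts of each gene in the library of rat 6 (points, with exact 95% Poisson intervals) and the range of counts expected from the share of the gene in the other 5 blast-controls (blue bars), horizontal axis in counts. Neurod2 at 47 counts is the only gene whose interval lies apart from its bar, which ends at 9.72.

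Igfbpl1 was highest in the rats with the highest markers of choroid plexus, the epithelium in the ventricle beside the hippocampus. The summed level of 6 such markers (Ttr, Folr1, Kl, Clic6, Kcnj13 and Otx2) lay between 668 and 1219 CPM in rats 12, 7, 32, 17 and 1, and between 8.85 and 50.8 CPM in the 6 other rats. Igfbpl1 measured 2.68 to 4.16 CPM in those 5 rats and 0.410 to 1.67 CPM in the 6 others, so that the 5 highest rats were the same in both. Of the 5, 3 were blast-boldine rats and 2 blast-controls. Blast-boldine rats 12, 17 and 32 measured 4.16, 2.68 and 4.04 CPM of Igfbpl1, beside 2.85 and 3.67 CPM in blast-control rats 1 and 7. Among the other rats, blast-boldine rats 19, 20 and 35 measured 0.693, 1.67 and 1.44 CPM, beside 0.691, 0.410 and 1.42 CPM in blast-control rats 4, 5 and 9. The sum over the markers ran from 8.85 to 1219 CPM in blast-boldine rats and from 13.3 to 1195 CPM in blast-controls, and none of the 6 was at 0 in the 5 high rats. None of the other 8 genes had the same 5 rats highest, and Dcx measured 32.4 to 41.5 CPM in the 5 rats and 27.7 to 44.6 CPM in the 6 others. The share of all genes with the same 5 rats highest was not counted, so how common such a match is remains unknown. The part of choroid plexus RNA in the counts of Igfbpl1 was not tested.

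**Figure D5:**
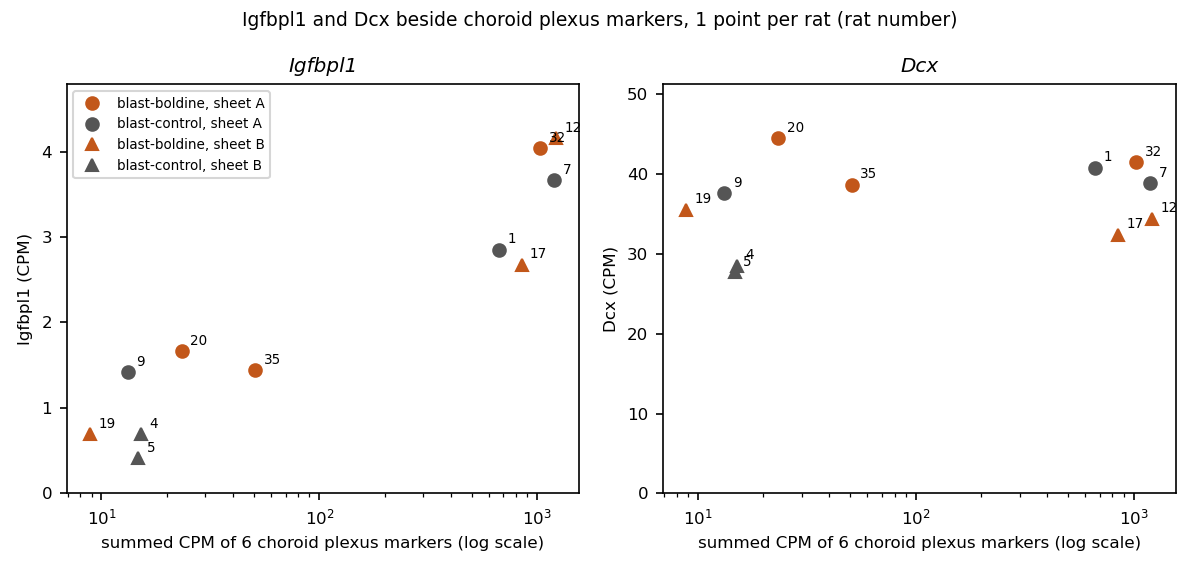
Igfbpl1 (left) and Dcx (right), in CPM, against the summed CPM of 6 choroid plexus markers (horizontal axis, log scale), with a point per rat labelled by rat number, circles for sheet A, triangles for sheet B, grey for blast-control and orange for blast-boldine. The 5 rats with a marker sum of at least 668 CPM have Igfbpl1 of 2.68 to 4.16 CPM, and the others have 0.410 to 1.67 CPM, while Dcx overlaps between them.

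The other genes of the path were taken from 5 lists, and few of them passed an unadjusted p under 0.05 without rat 6, where 1.4% of the 12529 genes tested passed. None had an adjusted p under 0.05. Of 14 genes of neural stem cells and radial glia, 1 passed without rat 6, against 1.4% of all genes, and it was higher. This was Vim, which encodes vimentin, an intermediate filament of radial glia, reactive astrocytes and ependymal cells. Vim measured 48.0 to 71.2 CPM in blast-controls, with a median of 54.5, and 61.4 to 111 CPM in blast-boldine rats, with a median of 82.7. The groups overlapped, with a log2 fold change of 0.50 (SE 0.16) and an edgeR p of 1.0 after Benjamini-Hochberg adjustment. The list as a whole had 5 genes higher and 9 lower, with a median of -0.02 against -0.00097 over all genes. With the sheet as a term it had 9 genes higher and 5 lower, with a median of 0.0045.

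Of 17 further genes of immature neurons, 0 passed higher and 2 lower without rat 6, against 1.4% of all genes in either direction. They were Marcksl1, a regulator of the actin cytoskeleton, and Dpysl5, a collapsin response mediator protein of growing axons. Blast-boldine rats had 14.96 ± 1.80 CPM of Marcksl1 (SD, n = 6), where blast-controls had 20.5 ± 4.87 CPM (SD, n = 5). The log2 fold change was -0.45 (SE 0.16). For Dpysl5 the means were 38.8 ± 3.04 (SD, n = 6) and 44.8 ± 2.61 CPM (SD, n = 5), with a log2 fold change of -0.21 (SE 0.09). Both lay in the opposite direction to Dcx, and neither had an unadjusted p under 0.05 over the 12 rats. The median of this list without rat 6 was 0.01, with 9 genes higher and 8 lower. In the fit to 11 rats that carried the sheet, where Dcx was called, the median turned to -0.04. Of the 17 genes, 6 were then higher and 11 lower. That fit called 2 of them, again Marcksl1 and Dpysl5 and both lower, against 5.35% of all genes.

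Of 13 genes of the cell cycle tested without rat 6, none passed, and the median was 0.05 with 8 genes higher and 5 lower. Once the fit carried the sheet, their median was -0.06, with 5 higher, 8 lower and again none past the threshold. A further 5 of the 18 in this list did not pass the filter on low counts. None of 8 genes of granule neuron maturation passed either, with a median of 0.06, or of 0.04 once the fit carried the sheet. Of 20 genes of niche signals, 1 passed without rat 6 and was lower, against 1.4% of all genes. Over the 12 rats 0 passed, and 3 did (all lower) when the sheet was a term, against 5.35% of all genes. It was Bmp4, a ligand that holds stem cells in quiescence, with a mean of 9.65 ± 2.30 CPM over treated rats (SD, n = 6) and of 13.03 ± 1.37 CPM over blast-controls (SD, n = 5). Bmp4 had a log2 fold change of -0.44 (SE 0.17), and over the 12 rats its unadjusted p was 0.0619 in edgeR. The other 2 of the 3, Fgf2 and Notch1, were singled out after their values were seen, at -0.22 (SE 0.09) and -0.21 (SE 0.09). This list had 5 genes higher and 15 lower, with a median of -0.07.

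Markers of other cells that express some of these genes were compared as well. Sox2 is shared with astrocytes, whose 6 markers were all lower in blast-boldine rats without rat 6 (median -0.12, none past an unadjusted p of 0.05), with a summed level of 3736 to 4992 CPM against 3970 to 5316 CPM in blast-controls. Sox4 and Sox11 are shared with oligodendrocyte precursors, of whose 9 markers 2 were higher and 7 lower (median -0.14, none past the threshold), with sums of 1097 to 1244 and 1197 to 1299 CPM. All 6 ependymal markers were higher, with a median of 0.37, and 1 passed, against 1.4% of all genes. This was Ccdc153, at 6.03 ± 2.22 CPM (SD, n = 6) against 2.98 ± 0.725 CPM (SD, n = 5). Their sum was 24.2 to 56.8 CPM in blast-boldine rats and 23.2 to 54.1 CPM in blast-controls, and whether it bears on Vim was not tested. Of the choroid plexus markers, 5 were higher and 1 lower, with a median of 0.29. The 7 markers of subventricular-zone neuroblasts summed to 268 to 392 and 258 to 374 CPM, with a median of -0.01. Of 6 Cajal-Retzius markers, 3 were tested with none past the threshold, and Lhx1 stayed under 3 counts in every rat. Of 8 microglial and macrophage markers, 2 were higher and 6 lower (median -0.18), with none past the threshold. When the sheet was a term in the fit to 11 rats, where 5.35% of all genes passed, some of these lists gained lower calls. They were 1 of 8 hippocampal excitatory neuron markers (Wfs1), 1 of 9 oligodendrocyte precursor markers (Cspg4) and 1 of 8 microglial markers (Tmem119), all named after their values were seen.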

How the data were processed

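Total RNA of the hippocampus (brain in the labels), 1 stranded library per rat after ribosomal RNA depletion, was analysed from 12 rats. The authors removed PCR duplicates with HTStream, aligned reads to mRatBN7.2 with STAR 2.7.11b, allowing up to 20 alignments, and counted them by gene name and strand with featureCounts (Subread 2.0.1). The deposited values are these raw counts, without normalization. The counting options the study gives do not ask for reads with several alignments to be counted, and duplicate removal can lower the counts of abundant genes.

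From the counts, edgeR 4.0.16 (quasi-likelihood, TMM, default filter at 10 counts, treatment only, two-sided, Benjamini-Hochberg adjustment) gave the main test. It gives a gene of few counts a p no smaller than its counting error allows. Log2 CPM used a prior count of 2. Exact permutation tests covered 924 assignments, 462 without rat 6, and 400 and 200 within sheets, where the statistic was the mean of the differences within sheets. DESeq2, limma-voom, RLE factors, other filters, the sheet as a covariate and leaving out each rat were alternatives. Python 3.11.15 with scipy 1.17.1 and matplotlib 3.10.9 was used for permutations and plots. The edgeR, limma-voom and DESeq2 fits with treatment alone were tested on simulated counts. Those counts had no sheet difference and less spread between rats than the main fit gave. The fits with the sheet and the permutation tests were not simulated. The genes and lists were chosen with earlier results of these data known, and all genes of the set are named, with list genes at an unadjusted p under 0.05, at most 4 per list. Each library is 1 animal, per the study's methods. Further lists, of intermediate progenitor and cortical neuron genes, are not reported here.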

Additional observations from a re-analysis of the deposited data

Results flagged for a closer look

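In 3 of 18 groups of 6 rats, 1 value of log2 CPM lay farther from the next than Dixon's criterion at the 95% level allows, where chance gives about 1 in 20. All 3 were 0 counts in the library of rat 6. The gap to the next blast-control took 0.802 of the range of the group for Mki67, 0.814 for Top2a and 0.765 for Sox11. A count of 0 in rat 6 has an exact 95% Poisson upper limit of 58.4 CPM, above every other value of these genes.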

How the results depend on the processing

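No setting gave any of the 9 genes an adjusted p under 0.05, and 0 had an unadjusted p under 0.05 in the fits without the sheet. When the sheet was a term in a fit to 11 rats, Dcx made it 1 in edgeR, against 5.35% of genes tested. Dcx also made it 1 in DESeq2 in that form, against 4.69% of genes, a fit added after the data were seen. In exact permutation within sheets Dcx had p = 0.02 over 12 and over 11 rats, the 12 with rat 6 at 2 counts of Dcx. Of all genes, 5.18% had a p under 0.05 in this test over 12 rats and 6.09% over 11. These fits and tests used the same rats. In 152 of the 172 alternative values of the log2 fold changes, the direction was as in the 12 rats, and 20 had the opposite sign. Requiring 10 counts in every rat left Neurod2 alone, whose value then was the median, -0.44. Leaving out each rat in turn gave the median values from 0.01 to 0.20. It gave Sox2 values from -0.13 to 0.15, Sox4 from -0.12 to 0.17, Neurod2 from -0.81 to 0.14 and Sox11 from -0.34 to 0.11. Single rats also moved values that kept their sign by over 1.5 times, with ranges from 0.065 (without rat 5) to 0.20 (without rat 1) for Dcx, 0.14 (rat 5) to 0.75 (rat 7) for Igfbpl1, 0.010 (rat 7) to 0.27 (rat 5) for Mki67, 0.087 (rat 12) to 0.41 (rat 4) for Neurod1 and 0.16 (rat 7) to 0.41 (rat 1) for Top2a. Neurod2 turned positive without rat 6 (0.14) and Sox11 without rat 5 (0.11). Limma-voom gave Sox2 0.044 and Neurod2 0.085. Sox4 was at -0.0064 with the sheet as a covariate, -0.00021 with it and without rat 6, -0.00089 in DESeq2 in that form and -0.0048 with RLE factors. The difference in mean log2 CPM changed sign without rat 6 for Sox2 (-0.07 to 0.053), Neurod2 (-0.41 to 0.13), Sox4 (-0.09 to 0.094) and Sox11 (0.80 to -0.19). The causes were not tested. Other prior counts (0.5 and 5) changed no direction. No paired analysis was possible because the groups share no replicate number. Counts were few for Igfbpl1, Top2a and Mki67, and rat 6 held 8 or fewer for every gene but Neurod2.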
